A study of Homo sapiens and Mus musculus with 14 samples.

Results

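Gene desert peaks are the ATAC-seq peaks of MDA-MB-436 cells that lie more than 500 kb from the start and the end of every protein-coding gene and inside none. They were taken by position alone from the 3 deposited peak lists, on chromosomes 1 to 22 of hg38, with gene positions from RefSeq. SMARCAL1 knockout clone 1 had 1724 such peaks of 37065 on these chromosomes, or 4.65% (exact binomial 95% interval 4.44% to 4.87%). SMARCAL1 knockout clone 2 had 1679 of 32485, or 5.17% (4.93% to 5.41%), and control cells had 3129 of 60777, or 5.15% (4.97% to 5.33%). Together these are 6532 of the 138915 peaks deposited for the line.

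MDA-MB-436 is a human breast adenocarcinoma line, and ATAC-seq maps open chromatin by letting a transposase insert sequencing adapters into accessible DNA. The study knocked out SMARCAL1, an enzyme that rewinds and remodels DNA at stalled replication forks, and its title places the work in innate immune signalling and the checkpoint ligand PD-L1. The 8 libraries of the line were 3 of SMARCAL1 knockout clone 1 in batch 1, 2 of SMARCAL1 knockout clone 2 in batch 2, and 3 of control cells in batch 1. Each knockout is a single clone, no treatment is labelled, and all cells were grown in the same serum-supplemented DMEM. The authors merged the replicates of each group into 1 list, so there is no replicate spread, no p-value is given, and every interval covers counting error only. Clone 2 and batch 2 cannot be told apart. The mouse melanoma line B16F10, also in the series, was not analysed here.

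Gene deserts are long stretches of the genome without protein-coding genes. Some are stable over evolution and hold distal enhancers, elements bound by transcription factors that act on a gene far along the chromosome, often a developmental regulator. Others are AT-rich, late-replicating and packed in heterochromatin, and many hold genes for long non-coding RNAs (lncRNAs), which are transcribed but not translated. AP-1, a dimer of FOS and JUN family proteins, is a factor commonly bound at such distal elements in mesenchymal cancer cells.

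The score of a peak was read from its values as the authors' −log10 p, averaged over merged replicate peaks, and no peak scored below 5. Scores served only to rank and select peaks of the same list. The lists differed as a whole: the narrower peaks of clone 2 had a median width of 191 bp in the deserts, against 387 bp in clone 1 and 319 bp in control. The background pileup at which Poisson tails equal the most frequent scores was 0.985 reads in clone 2, against 1.91 in clone 1 and 2.02 in control. As a check of the line's label, a peak lay within 1 kb of an end of 5 of 8 mesenchymal or basal markers in clone 1, 3 in clone 2 and 7 in control, and of 3, 1 and 5 of 8 luminal markers. The luminal receptor genes ESR1 and PGR had none in any list. Leukocyte markers gave 1, 3 and 2 of 5 and melanocyte markers 2 of 4 in each list, and their part in the desert results was not tested.

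Open chromatin was sparse in the deserts. Of the stretches that meet the rule, 297 are flanked by genes on both sides, and they cover 315 Mb, or 11.3% of the span between the outermost genes, unsequenced gaps included. They held 5.42 peaks per Mb in clone 1, 5.29 in clone 2 and 9.84 in control, against 14.3, 12.4 and 23.3 peaks per Mb outside the deserts in the same 3 lists. The desert density was thus lower by a factor of 2.63 in clone 1, 2.35 in clone 2 and 2.36 in control. Of these 297, 221 had a peak in clone 1, 233 in clone 2 and 246 in control. With stretches beyond the outermost genes included, 257 deserts had a peak in any list. Of those, 224 had one in clone 1, 236 in clone 2 and 250 in control. When genes of every RefSeq type were required to be 500 kb away, 6 clone 1 peaks, 2 clone 2 peaks and 16 control peaks were left. The length of sequence left by that rule is not given here, so these counts cannot be read as a density.

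LncRNA gene bodies cover 15.6% of the desert length. They held 24.8% of the desert peaks of clone 1 (22.7% to 26.9%), 25.4% of those of clone 2 (23.3% to 27.5%) and 23.8% of those of control (22.3% to 25.3%), so the share lay above the covered length in all 3 lists. Windows of 1 kb around lncRNA ends cover 1.14% of the deserts and held 4.35%, 3.63% and 3.61% of the peaks of clone 1, clone 2 and control. In all, 206 non-coding genes had a peak within 1 kb of an end in some list and 54 in all 3 lists, of which 44 were lncRNAs and 8 pseudogenes. The number of non-coding genes in the deserts is not given here, so these counts cannot be read as shares. A control peak and no peak of either clone was found at 67 of the 206. EIF3IP2, a pseudogene on chromosome 7, was the 1 gene with one in both clones and not in control, with scores of 7.78 in clone 1 and 9.22 in clone 2.

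No genome sequence was used here, so the sequences of the peaks themselves are not shown. RefSeq promoter windows of GRCh38.p14, 300 bases each from 250 before to 50 after a transcript start, were counted for 641 starts of 569 desert genes. Those of 1 chromosome, named under the processing below, were left out of every window count, inside and outside the deserts. A clone 1 peak overlapped 20 of these windows (3.12%), a clone 2 peak 17 (2.65%) and a control peak 28 (4.37%, 2.92% to 6.25%). The control share was 23.3% for non-coding promoter windows outside the deserts and 54.9% for protein-coding ones. Desert windows were AT-rich, with a median of 39.3% G and C and 2 CG dinucleotides. The medians were 50.7% and 5 over non-coding windows outside the deserts, and 58.7% and 14 over all 33725 windows. The AP-1 letters TGANTCA, which read the same on both strands, were found in 84 desert windows (13.1%). They were in 10.2% of non-coding windows outside the deserts and in 7.67% of all windows. Within the deserts they were in 3 of 28 windows with a control peak (10.7%) and in 81 of 608 without a peak in any list (13.3%). TATAAA, searched on both strands, was in 33.1% of desert windows, 14.1% of non-coding windows outside the deserts and 11.6% of all. A 12-base form of the CTCF motif, searched on both strands, was in 2 desert windows (0.312%) and in 0.291% of all.

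A peak in each of the 3 lists overlapped 12 desert windows of 11 genes, and 2 of the 12 held AP-1 letters. They are shown because they carry both a promoter annotation and a shared peak, on the strand of the gene, with the AP-1 letters in capitals. LOC124900845 is a lncRNA gene on the minus strand, with its window at chr4:32140729-32141028, and LOC105369165 has its window at chr2:52934452-52934751, also minus.
LOC124900845: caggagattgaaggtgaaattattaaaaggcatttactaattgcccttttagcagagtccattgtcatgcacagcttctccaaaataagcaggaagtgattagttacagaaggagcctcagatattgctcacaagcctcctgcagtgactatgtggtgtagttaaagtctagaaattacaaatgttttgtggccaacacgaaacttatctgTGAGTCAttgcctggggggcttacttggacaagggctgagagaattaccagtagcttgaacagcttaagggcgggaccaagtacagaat
LOC105369165: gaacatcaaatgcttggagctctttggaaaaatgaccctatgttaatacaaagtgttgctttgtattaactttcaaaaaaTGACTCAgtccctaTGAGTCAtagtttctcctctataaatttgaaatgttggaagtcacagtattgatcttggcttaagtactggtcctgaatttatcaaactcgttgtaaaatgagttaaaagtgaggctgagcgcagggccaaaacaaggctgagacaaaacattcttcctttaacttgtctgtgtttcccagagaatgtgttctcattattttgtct

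The peak over the LOC124900845 window scored 12.2 in clone 1, 29.2 in clone 2 and 17.4 in control, at ranks 1843, 607 and 2910 of the 3 lists. In every list it therefore stood far above the median score. The LOC105369165 window, with its pair of AP-1 matches, lay under peaks scoring 9.56 in clone 1, 17.4 in clone 2 and 14.4 in control. A contrasting type of desert start is rich in CG dinucleotides, as promoters of housekeeping genes are. LINC02226 (chr5:8457515-8457814, minus), LINC03051 (chr3:117997530-117997829, minus) and LINC00662 (chr19:27793891-27794190, minus) are lncRNA genes of this type with a peak in all 3 lists. Capitals mark CG.
LINC02226: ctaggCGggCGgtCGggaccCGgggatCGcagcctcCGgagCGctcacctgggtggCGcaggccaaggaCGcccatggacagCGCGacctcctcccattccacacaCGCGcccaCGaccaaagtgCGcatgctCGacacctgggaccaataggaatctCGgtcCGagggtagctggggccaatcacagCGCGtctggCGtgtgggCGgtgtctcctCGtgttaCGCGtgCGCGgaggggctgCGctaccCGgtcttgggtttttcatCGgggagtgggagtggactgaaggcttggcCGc
LINC03051: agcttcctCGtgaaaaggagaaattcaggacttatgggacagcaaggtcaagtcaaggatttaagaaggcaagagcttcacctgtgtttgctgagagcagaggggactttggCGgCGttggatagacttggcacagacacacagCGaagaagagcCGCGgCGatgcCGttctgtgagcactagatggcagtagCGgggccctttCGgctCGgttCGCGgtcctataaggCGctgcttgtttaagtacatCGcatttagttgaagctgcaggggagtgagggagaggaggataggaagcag
LINC00662: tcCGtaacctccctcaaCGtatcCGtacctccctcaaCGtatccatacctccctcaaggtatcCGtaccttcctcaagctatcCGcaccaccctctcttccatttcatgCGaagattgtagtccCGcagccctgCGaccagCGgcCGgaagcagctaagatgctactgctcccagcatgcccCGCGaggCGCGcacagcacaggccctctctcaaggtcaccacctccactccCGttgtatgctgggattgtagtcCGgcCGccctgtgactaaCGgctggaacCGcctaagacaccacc

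The LINC02226 window held 31 CG and shared its peak with the start of MIR4458HG, on the other strand, whose window held 26. That peak scored 9.54 in clone 1, 25.5 in clone 2 and 14.0 in control. The LINC03051 window, with 15 CG, lay under peaks of 6.57, 18.3 and 13.2 in clone 1, clone 2 and control, and the LINC00662 window, with 20 CG, under peaks of 12.4, 19.6 and 12.6. With chromosome 8 again left out, 39 mature microRNAs came from 32 desert hairpins. None of these hairpins had a clone peak within 1 kb, and a control peak lay 0.913 kb from the overlapping hairpins MIR5583-1 and MIR5583-2.

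Desert peaks were weak in control and clone 1 and not in clone 2. The median score of desert peaks was 6.03 in clone 1, 11.7 in clone 2 and 5.84 in control, against 6.07, 10.9 and 6.29 for all other peaks of the same lists. In clone 1, 44.8% of desert peaks scored above the median of their own list (42.5% to 47.2%), and in control 40.3% did (38.6% to 42.1%). In clone 2 the share was 57.4% (54.9% to 59.7%). Desert peaks made up 8.92% of the lowest decile of control scores and 4.33% of the highest. Desert peaks also stood farther apart, with a median spacing of 23.3 kb in clone 1, 29.3 kb in clone 2 and 14.3 kb in control, against 16.7, 15.9 and 10.8 kb elsewhere.

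Most control desert peaks had no counterpart in the clones. A control peak counted as found when a clone peak overlapped it by at least 1 bp. In clone 1, 2078 of 3129 control desert peaks were absent, or 66.4% (64.7% to 68.1%), against 57.4% of all other control peaks and 57.9% of all control peaks on chromosomes 1 to 22. In clone 2, 1846 were absent, or 59.0% (57.2% to 60.7%), against 56.8% of the others and 56.9% of all. In both clones 1630 were absent, or 52.1% (50.3% to 53.9%), against 46.5% of the others and 46.8% of all. Before any account of score, the share found in deserts minus that elsewhere was thus -8.99 percentage points in clone 1 and -2.18 in clone 2.

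A total of 835 control desert peaks were found in both clones, or 26.7% (25.1% to 28.3%), against 32.3% of the others and 32% of all control peaks. Another 216 were found in clone 1 alone, or 6.90%, against 10.3% of the others and 10.1% of all. The clone 2 list alone held 448, or 14.3% (13.1% to 15.6%), against 10.9% of the others and 11.1% of all. The 4 classes differed in control score, with medians of 9.77 for peaks found in both clones, 5.73 for clone 1 alone, 6.39 for clone 2 alone and 5.26 for neither. They differed little in distance to the nearest protein-coding gene, with medians between 746 and 765 kb. Peaks found in neither clone had a median control width of 231 bp, against 515 bp for those found in both.

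Because strong peaks are found more often, desert and other peaks were compared within deciles of the control score, weighted to the whole control list's deciles. At equal score, clone 1 retained 39.4% of desert peaks and 42.2% of all other peaks, which differ by -2.84 percentage points (95% interval -4.31 to -1.37). For clone 2 the shares were 47.9% of desert peaks and 42.8% of other peaks, a difference of 5.06 points (3.64 to 6.48). Since the plain difference in clone 2 was -2.18 points, its sign there depends on the weighting for score. When only other peaks outside gene bodies and over 1 kb from gene ends were taken, the clone 1 difference was -0.28 points (-1.79 to 1.24) and the clone 2 difference 4.26 points (2.80 to 5.72). With peak width added to the score strata, the clone 1 difference was -1.14 points (-3.20 to 0.92) and the clone 2 difference 7.11 points (5.39 to 8.83). The clone 1 difference was therefore not detectable against other distal peaks or at equal width. The difference between the clones moves with batch, peak width and background pileup, and their part in it was not tested.

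**Figure D1:**
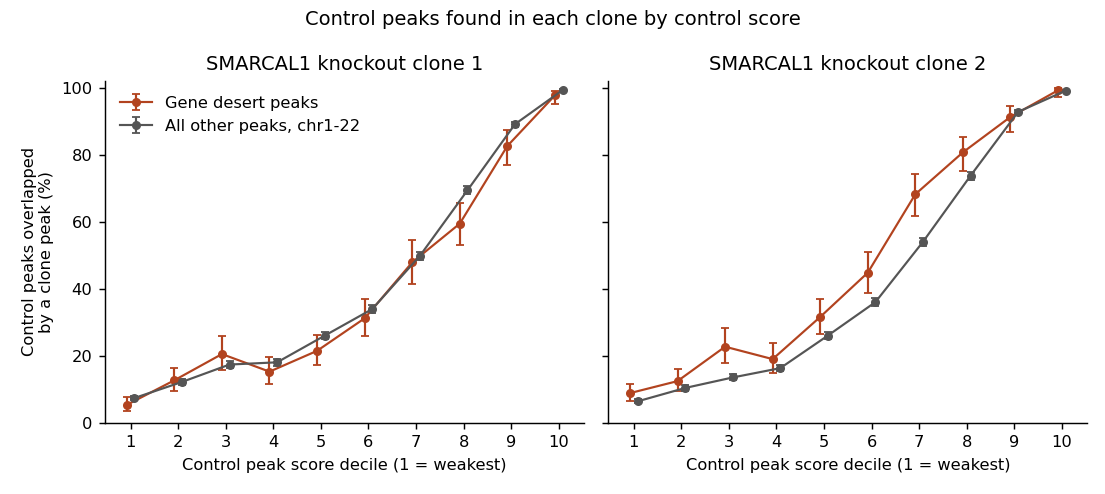
Share of control peaks overlapped by a clone peak (y axis, %) in each decile of the control score (x axis, 1 the weakest), for SMARCAL1 knockout clone 1 on the left and clone 2 on the right. Orange points are gene desert peaks, grey points all other peaks on chromosomes 1 to 22, and bars exact binomial 95% intervals; in clone 2 the desert share of the seventh decile is 68.2% against 54.0%.

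By decile, the clone 2 gap was widest in the middle of the score range. In the seventh decile, with control scores from 6.86 to 7.85, 161 of 236 desert peaks were found in clone 2, or 68.2% (61.9% to 74.1%), against 54.0% of the others (52.7% to 55.3%). In clone 1 the same decile gave 47.9% of desert peaks (41.4% to 54.5%) and 49.8% of the others. The clone 1 gap lay higher, in the eighth decile, with 59.4% of desert peaks (53.1% to 65.6%) and 69.4% of the others (68.2% to 70.5%). In the top decile nearly all were found, with 257 of 263 desert peaks in clone 1 (97.7%) and 261 in clone 2 (99.2%). The others gave 99.3% and 99.1% there. The lowest decile gave 5.35% of desert peaks in clone 1 and 8.86% in clone 2, against 7.39% and 6.39% of the others.

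Ratios like those of the deserts were also seen at 100 to 500 kb from genes. An expected number was formed by giving each control peak the share found, in that clone, among all control peaks of its score decile. In the deserts, the found number over the expected was 0.933 in clone 1 and 1.07 in clone 2 beyond 1000 kb from genes, 0.891 and 1.12 at 750 to 1000 kb, and 0.954 and 1.14 at 500 to 750 kb. Peaks at 100 to 500 kb gave 0.916 and 1.09. Among the 397 control peaks just inside the limit, at 500 to 550 kb, 38.3% were found in clone 1 and 46.1% in clone 2, at ratios of 1.02 and 1.21. Among the 443 just outside, at 450 to 500 kb, 30.9% and 42.0% were found, at ratios of 0.836 and 1.12. The clone 1 ratio was thus above 1 just inside the limit and below 1 just outside it.

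**Figure D2:**
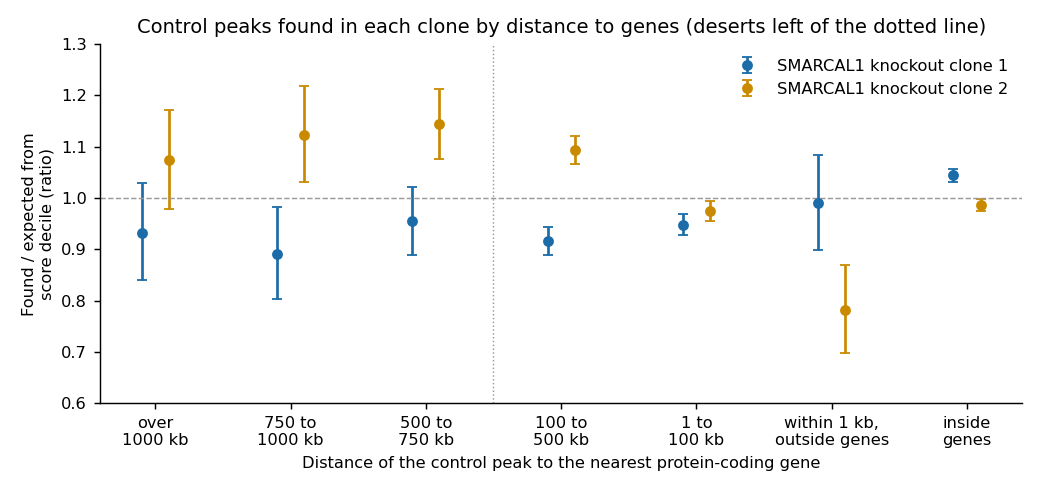
Control peaks found in a clone over the number expected from their score deciles (y axis, ratio) by distance to the nearest protein-coding gene (x axis), with SMARCAL1 knockout clone 1 in blue and clone 2 in orange. Bars are the exact binomial 95% interval of the share found, divided by the share expected; desert bands stand left of the dotted line, and the 100 to 500 kb band next to it shows the ratios 0.916 and 1.09.

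Chromosomes differed in the desert ratios. Among the 19 chromosomes with at least 30 control desert peaks, the clone 1 ratio ran between 0.527 on chromosome 16, where 8 of 42 peaks were found, and 1.19 on chromosome 7. The clone 2 ratio ran between 0.648 on chromosome 20 and 1.61 on chromosome 15, where 28 of 42 were found. Chromosome 3 was the other low one for clone 1, with 27.3% found (21.6% to 33.6%) of 227. On the other 17 the clone 1 interval held the expected number. For clone 2 the interval lay above the expected number on chromosomes 2, 6, 11, 14, 15 and 18 and held it on the other 13. With deciles formed by chromosome the whole-genome difference was -2.14 points in clone 1 (-3.46 to -0.83), against -2.84 without, and 3.58 points in clone 2 (2.29 to 4.86), against 5.06 without.

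**Figure D3:**
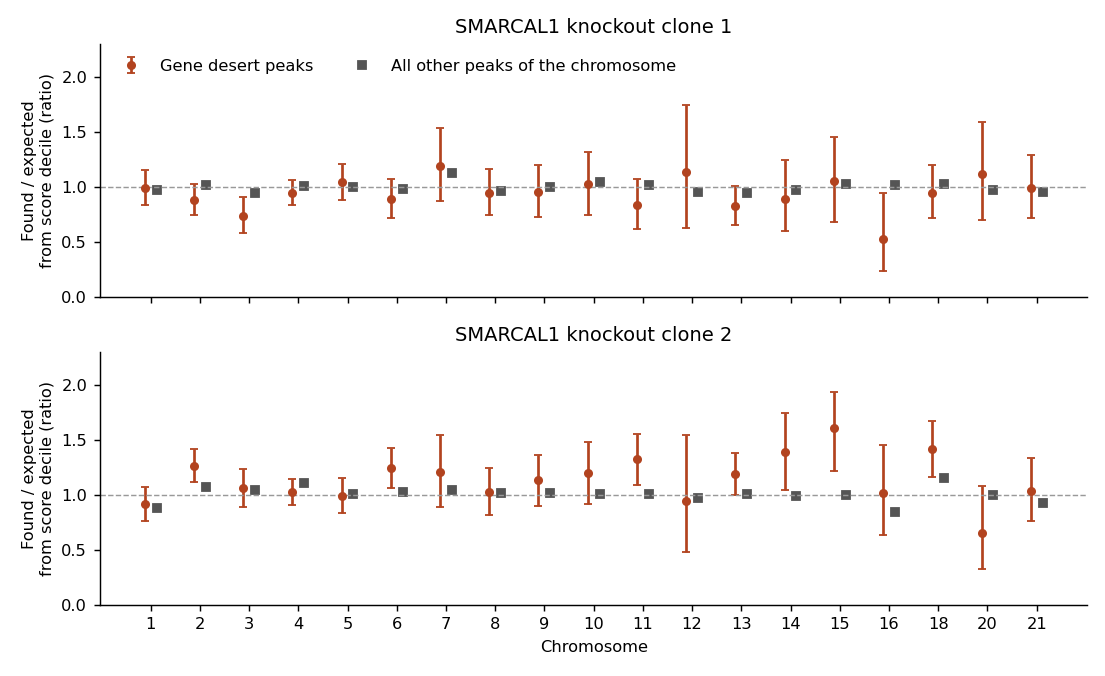
Found over expected control peaks (y axis, ratio) on each of the 19 chromosomes with at least 30 control desert peaks (x axis), for SMARCAL1 knockout clone 1 above and clone 2 below. Orange circles are gene desert peaks with bars from the exact binomial 95% interval, and grey squares are all other peaks of the chromosome; chromosome 16 is lowest in clone 1 at 0.527 and chromosome 15 highest in clone 2 at 1.61.

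The peaks were unevenly spread over deserts. The 10 fullest deserts held 668 control peaks, or 21.3% of the total, while the median desert with a control peak held 7 and 27 deserts held 1. The fullest lies on chromosome 4 between IGFBP7, a secreted protein that binds insulin-like growth factors, and LOC124900173. Its 3089 kb, chr4:57610386-60699086, held 45 clone 1 peaks, 28 clone 2 peaks and 112 control peaks. Of the control peaks, 15 were found in clone 1, against 28.3 expected from their scores, and 20 in clone 2, against 27.9 expected. A total of 87 were found in neither clone, against 72.1 expected.

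Chromosome 1 carries the next pair. The desert between PLA2G4A, the cytosolic phospholipase that releases arachidonic acid, and BRINP3, a gene of the nervous system, held 65 clone 1, 29 clone 2 and 91 control peaks. Of the control peaks, 34 were found in clone 1 (30.7 expected) and 24 in clone 2 (also 30.7 expected), and 50 in neither. The desert between CDC73, a subunit of the transcription elongation complex PAF1, and KCNT2, a potassium channel, held 60 clone 1, 27 clone 2 and 91 control peaks. Here 27 were found in clone 1 (28.6 expected), 20 in clone 2 (28.2 expected) and 60 in neither (52.8 expected). Both deserts thus had more clone 1 than clone 2 peaks, unlike desert peaks over the genome, of which the clones had nearly equal numbers.

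**Figure D4:**
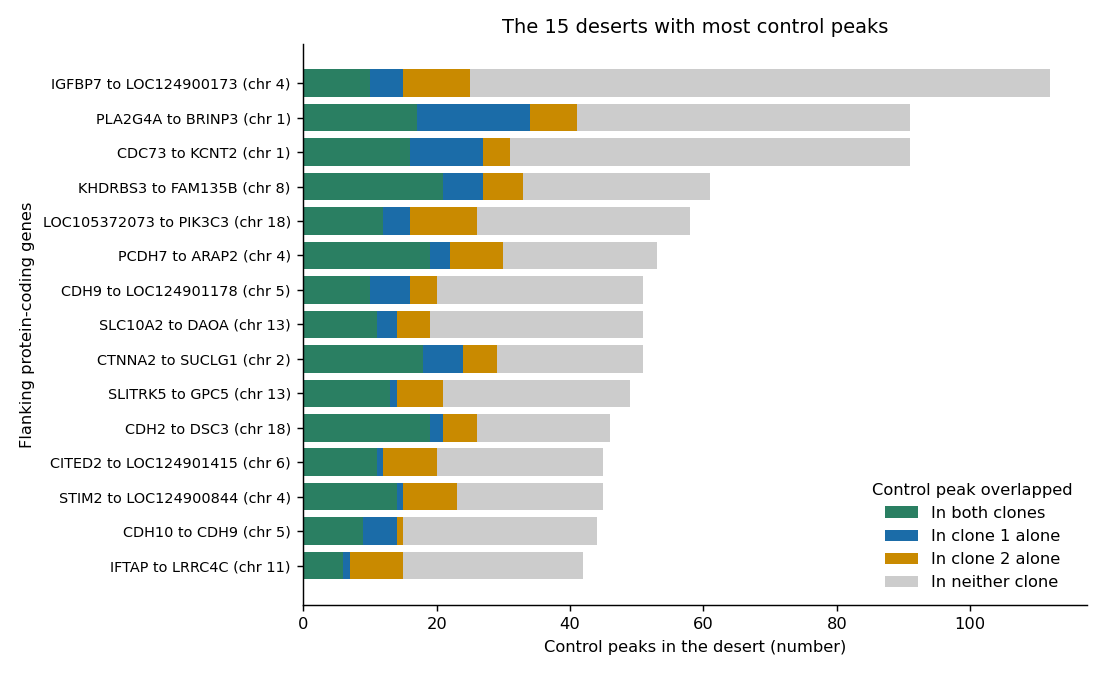
Number of control peaks (x axis) in the 15 deserts with most of them (y axis, flanking protein-coding genes and chromosome), split into those overlapped in both clones, in SMARCAL1 knockout clone 1 alone, in clone 2 alone and in neither. The IGFBP7 desert, at the top, has 10 in both clones and 87 in neither.

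The remaining deserts that led by these counts stood close to their expected numbers. Between KHDRBS3, an RNA-binding protein, and FAM135B on chromosome 8, 27 of 61 control peaks were found in clone 1 and also in clone 2, with 25.3 and 25.5 expected. In the desert between LOC105372073 and PIK3C3, the lipid kinase of autophagy, 16 of 58 were found in clone 1 (19.0 expected), 22 in clone 2 (19.2 expected) and 32 in neither (33.3 expected). The desert between SLC10A2, the ileal bile acid transporter, and DAOA on chromosome 13 had 45 clone 1 peaks, 19 clone 2 peaks and 51 control peaks. Of its control peaks 32 were found in neither clone, with 29.0 expected.

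Of the 49 deserts with at least 20 control peaks, 13 had more control peaks found in clone 1 than in clone 2 and 30 had fewer. The expected share lay above the 95% interval of the found share in 2 deserts for clone 1, that of IGFBP7 and that between IFTAP and LRRC4C, where 7 of 42 were found and 13.5 expected. It lay below the interval in none for clone 1. For clone 2 it lay below the interval in 2 deserts, both on chromosome 2: between ZEB2, a repressor of epithelial genes, and ACVR2A, an activin receptor, 12 of 21 were found (7.04 expected), and between TMEFF2 and SLC39A10 12 of 20 (6.09 expected). In the ZEB2 desert clone 1 held 4 peaks, clone 2 16 and control 21. These deserts were picked out after their values were seen, and 49 intervals of this kind were examined for each clone.

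**Figure D5:**
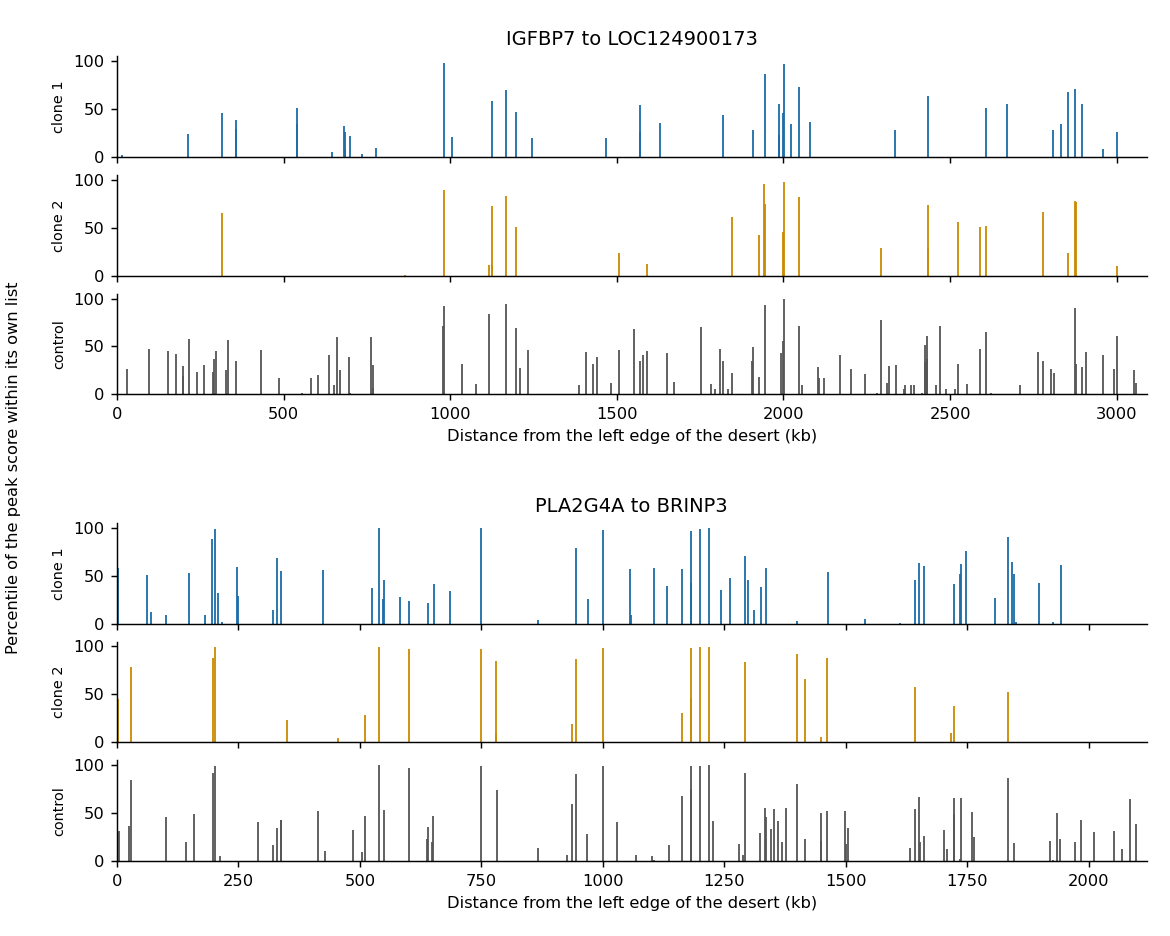
Peaks of SMARCAL1 knockout clone 1, clone 2 and control along the deserts IGFBP7 to LOC124900173 (upper 3 tracks) and PLA2G4A to BRINP3 (lower 3 tracks). The x axis is the distance from the left edge of the desert in kb and the height of each line is the percentile of the peak's score within its own list; 112 control peaks stand against 45 and 28 clone peaks in the upper desert, and the tallest lines recur in all 3 tracks.

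The strongest desert peaks recurred in every list, and the highest control score of a desert peak missing from either clone was 21.0. Nearly all control peaks of the top score decile outside the deserts were likewise found in each clone. The top one by control score, chr13:103883050-103883606, lies between SLC10A2 and DAOA, 817 kb from the nearer gene. It scored 29.2 in clone 1 (rank 33 of the list), 53.1 in clone 2 (rank 2) and 47.7 in control (rank 9), with widths of 613, 373 and 557 bp. The peak chr1:188706737-188707225, in the PLA2G4A desert, scored 26.7 in clone 1 (rank 46), 43.7 in clone 2 (rank 34) and 45.9 in control (rank 13). In the same desert chr1:188027161-188028174 scored 31.8 (rank 23), 42.5 (rank 42) and 41.9 (rank 29) in clone 1, clone 2 and control. All 3 therefore ranked among the first 50 peaks of each list, with no protein-coding gene within 500 kb.

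Of the 10 strongest, chr22:11974067-11974537 scored 29.4 in clone 1, 50.2 in clone 2 and 43.4 in control. It lies near the centromere of chromosome 22, where sequence is often repeated, and how the authors placed reads with several matches is not given in the sources used here. Chromosome 4 held 5 of the 10. Among them chr4:188941391-188942283, between TRIML1 and FRG1, scored 29.2, 38.8 and 39.9 in clone 1, clone 2 and control. The peak chr4:29424027-29424706, between STIM2, a calcium sensor of the endoplasmic reticulum, and LOC124900844, held rank 660 in clone 1, 1247 in clone 2 and 112 in control, the lowest clone ranks of the 10. Across the 835 control desert peaks found in both clones, the rank correlation of control and clone scores was 0.63 for clone 1 and 0.70 for clone 2 (Spearman's rho, a description over peaks of the same libraries). For control peaks outside the deserts found in both clones it was 0.67 and 0.66.

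Control desert peaks absent in both clones were weak. The strongest, chr1:191151353-191152185 between BRINP3 and RGS18, a regulator of G-protein signalling, scored 11.3 at rank 9156 of 64806. Next came chr12:17333195-17333671, between LMO3 and RERGL, at 10.9 and chr11:29261007-29261423, between METTL15 and KCNA4, at 10.7. The peak chr10:9792238-9792534, at 10.5, lies inside the lncRNA gene LINC02663, between GATA3 and CELF2, and chr9:108057468-108057903, at 9.71, inside the lncRNA gene LOC105376214, between KLF4 and ACTL7B. The last of the 10, chr18:30206144-30206554, scored 9.25 and lies between the cadherin genes CDH2 and DSC3. The first of these absent peaks thus ranked at 9156, against ranks of 9 to 112 for the 10 strongest shared ones.

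Some clone desert peaks overlapped no control peak. In clone 1 these were 677 of 1724, or 39.3% (37.0% to 41.6%), against 30.2% of its other peaks and 30.6% of all. In clone 2 they were 343 of 1679, or 20.4% (18.5% to 22.4%), against 10.3% of its other peaks and 10.9% of all. They were weaker than the rest: their median score was 5.49 in clone 1, against 6.71 for clone 1 desert peaks found in control, and 9.17 in clone 2, against 12.7. A group of 10 deserts held 233 of them in clone 1 (34.4%), and a group of 10 held 67 in clone 2 (19.5%). Of these groups, 5 and 4 deserts were also among the 10 fullest of control.

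The strongest in clone 1, chr13:104522053-104522676 in the SLC10A2 desert, scored 9.70 at rank 4195. Next in clone 1 came chr2:117199415-117199787, between DPP10 and DDX18, at 8.53. The strongest in clone 2, chr3:96236599-96236864 between NSUN3 and EPHA6, an ephrin receptor, scored 18.8 at rank 3797 and had no clone 1 peak. The next, chr6:102759487-102759662 between the glutamate receptor gene GRIK2 and HACE1, scored 17.5 in clone 2 and overlapped a clone 1 peak scoring 5.60.

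Peaks new in both clones were few. They numbered 37 in clone 1, or 2.15% of its desert peaks (1.52% to 2.95%), against 1.48% of its other peaks and 1.51% of all. In clone 2 they numbered 44, or 2.62% (1.91% to 3.50%), against 1.80% of its other peaks and 1.85% of all. First by rank stood chr18:64929124-64929336, between SERPINB8 and CDH7, inside 2 overlapping lncRNA genes, with scores of 6.91 in clone 1 and 15.5 in clone 2. Then came chr2:13558464-13558827, inside the lncRNA gene LOC105373438, at 6.54 and 12.3, and chr20:29519712-29519974, near the centromere, at 6.52 and 17.3.

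Among the lncRNA and pseudogene ends with a peak in all 3 lists, the strongest by control score was LOC100533732, a pseudogene in the PLA2G4A desert, with scores of 13.6 in clone 1, 30.7 in clone 2 and 27.3 in control. LOC105374831, a lncRNA gene on chromosome 2, followed with 10.2, 29.4 and 27.0, and LOC105376641, on chromosome 11, with 9.96, 24.0 and 22.8. LOC102724929, on chromosome 9, had 13.7, 28.7 and 21.4. The other genes of the first 10 were LOC105377956, LOC124900845, LINC02301, LOC105374754, LOC102724542 and LOC107986228, with control scores between 14.6 and 19.6. The last of them lies in the IGFBP7 desert. Control peaks within 1 kb of a lncRNA end were found in 58 of 113 cases in clone 1 (51.5 expected) and 52 in clone 2 (52.4 expected). At lncRNA ends the found numbers were therefore near those expected from score, and away from them 993 of 3016 were found in clone 1 (1076 expected) and 1231 in clone 2 (1092 expected).

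Cadherins and other adhesion genes often bordered the deserts. Of 43 adhesion genes on these chromosomes, 28 were the nearest protein-coding gene of a clone 1 desert peak, 29 of a clone 2 peak and 31 of a control peak. They were nearest to 12.3%, 12.9% and 12.8% of the desert peaks of clone 1, clone 2 and control. Among the genes nearest to a desert peak they made up 8.05%, 7.88% and 7.54%, and among protein-coding genes 0.227%. This list, like that of transcription factors below, was chosen with earlier results of these data known, so the shares are no test. Of the 401 control desert peaks nearest to the adhesion genes, 143 were found in clone 1 (151 expected) and 158 in clone 2 (153 expected). CDH9, a cadherin of neurons, was nearest to 25 clone 1, 10 clone 2 and 48 control peaks, of which 10 were found in clone 1 and 8 in clone 2 (13.2 and 13.0 expected). PCDH10, a protocadherin, had 15 of 25 control peaks found in clone 1 and 4 in clone 2 (10.6 and 10.97 expected), while PCDH7, another, had 12 and 15 of 32 (13.6 and 14.3 expected). Around TENM3, an adhesion receptor of neurons, 6 of 12 were found in clone 1 and 10 in clone 2 (4.73 and 4.98 expected).

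Developmental transcription factor genes were a smaller group. Of 58 on the list, 13 were nearest to a clone 1 desert peak, 12 to a clone 2 peak and 14 to a control peak, and they took 3.36%, 3.45% and 2.84% of the desert peaks. The whole list is 0.306% of protein-coding genes, and 348, 368 and 411 of the 18973 protein-coding genes were nearest to a desert peak of clone 1, clone 2 and control. Of 89 control peaks, 38 were found in clone 1 (35.4 expected) and 49 in clone 2 (35.9 expected), or 55.1% in clone 2 (44.1% to 65.6%). NR2F2, a nuclear receptor of mesenchymal tissue, gave 10 of 18 in clone 1 and 15 in clone 2 (8.20 and 8.37 expected). SOX11 gave 5 of 10 in clone 1 and 8 in clone 2 (4.67 and 4.74 expected). IRX1, a homeobox gene, gave 2 of 6 in clone 1 and 0 in clone 2 (0.945 and 0.768 expected). Nearest means nearest along the chromosome, and no link between a peak and a gene was measured.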

How the data were processed

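ATAC-seq was recorded in 8 MDA-MB-436 libraries, of which the authors deposited 1 merged peak list per group: SMARCAL1 knockout clone 1 (3 libraries), clone 2 (2) and control (3), grouped by the labels. The tools named are HISAT2, MACS2 and ChIPseeker, and the builds hg38 and mm10, per the submitters' processing notes; in the sources used here, tool settings and read depths are not given. None of the lists has a header. The deposited score was read from its values as the authors' −log10 p, since the most frequent scores equal Poisson tails at successive whole pileups. Scores on that series made up 9.70% of the clone 1 list, 5.85% of the clone 2 list and 6.28% of the control list. Coordinates are printed counted from 1.

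Gene ends came from RefSeq GRCh38.p14: 18973 protein-coding and 37107 other genes on chromosomes 1 to 22. A further 676 genes (153 protein-coding), listed on alternate or unplaced sequences, were left out. Peak sequences were not analysed here, since no genome was used. Promoter windows and microRNA hairpins on chromosome 8 were left out, so the window and microRNA counts do not cover its deserts. Its 165 control desert peaks are kept in the peak counts. Python 3.11.15, pandas 2.3.3, numpy 2.4.6, scipy 1.17.1 and matplotlib 3.10.9 were used. Overlaps and gene distances were checked against bedtools 2.31.1 on the deposited lists, and the differences at equal score on simulated outcomes.

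A peak was found in another list with 1 bp of overlap. Shares carry exact Clopper-Pearson 95% intervals, and standardised differences weight 10 deciles of control score; both cover counting error only. With 1 list per group no test between groups was possible. Alternatives were the desert distance (250 or 1000 kb), all RefSeq genes as bounds, peaks above the median score, 50% overlap, other strata and distal peaks only. Deciles by chromosome and restriction to recognisable mean scores were added after seeing the data. Peaks named are the 10 strongest control desert peaks found in both clones, the 10 strongest absent in both, the 5 strongest of each clone not in control and the first 5 in both clones only. Deserts named are the 5 with most control peaks and the 5 with most absent in both, and non-coding genes the first 10 by control score; not all are given in full, and 1 gene of the transcription factor list is not reported here. The members, gene lists and rules were chosen with earlier results of these data known.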

Additional observations from a re-analysis of the deposited data

Results flagged for a closer look

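The desert difference had opposite signs in the clones. At equal control score, desert peaks were found less often than other peaks in clone 1, by -2.84 percentage points, and more often in clone 2, by 5.06 points. Neither sign held under every alternative. The clone 1 difference was -0.28 points (-1.79 to 1.24) against distal peaks only and -1.14 (-3.20 to 0.92) with width strata. The clone 2 difference was 2.42 points (-0.48 to 5.31) at a distance of 1000 kb, -2.18 without strata and, like that of clone 1, reversed with all RefSeq genes as bounds. The clone 1 value minus the clone 2 value is -7.90 points. The difference between the clones was not tested, since each clone has 1 merged list, the clones belong to different batches and both are set against the same control list.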

How the results depend on the processing

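The desert share in clone 1, clone 2 and control was 9.59%, 10.7% and 10.6% with a distance of 250 kb, 1.15%, 1.27% and 1.32% with 1000 kb, 4.21%, 5.95% and 4.14% among peaks above the list median, and 0.0162%, 0.00616% and 0.0263% with all RefSeq genes as bounds. The last setting left 6 clone 1, 2 clone 2 and 16 control peaks, too few to read: absence became 62.5% in clone 1, 93.8% in clone 2 and 62.5% in both, new peaks 16.7% in clone 1 and 50% in clone 2, and the differences at equal score reversed to 13.1 points in clone 1 and -26.4 in clone 2. Among peaks above the median, absence was 36.8% in clone 1, 23.9% in clone 2 and 18.1% in both, and new peaks 17.1% in clone 1 and 8.62% in clone 2. Among recognisable mean scores, a setting chosen after seeing the data, absence was 38.4%, 24.9% and 17.2%, and new peaks 10.3% in clone 1 and 10.8% in clone 2. With 50% overlap, absence was 69.8% in clone 1, 77.4% in clone 2 and 61.9% in both, new clone 1 peaks 42.3%, and the clone 2 difference 12.9 points. At 1000 kb absence was 61.7% in clone 2 and 53.9% in both, and the clone 2 difference 2.42 points (-0.48 to 5.31). The clone 1 difference was -1.14 points (-3.20 to 0.92) with width strata, -0.28 against distal peaks only and -8.99 without strata. The clone 2 difference was 7.11 points with width strata, 3.58 within chromosomes and, reversed, -2.18 without strata. For these changes the cause was not tested. Absent and new shares are given here for desert peaks alone, without those of all peaks at the same settings. Changes in these shares can therefore not be called particular to the deserts. The remaining 17 values moved by less than their counting interval, with the sign kept.

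No paired analysis was possible because the deposited lists hold merged replicates with no value per library. Leaving out each replicate was not possible for the same reason. The lists hold no score below 5, and the median desert score was 6.03 in clone 1, 11.7 in clone 2 and 5.84 in control. Absence from a list says only that no peak was listed there.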

Other observations

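On the X chromosome, which the rule leaves out, deserts of the same definition held 39 clone 1, 56 clone 2 and 74 control peaks. Of the control peaks, 27 were found in clone 1 (36.5%, exact binomial 95% interval 25.6% to 48.5%) and 40 in clone 2 (54.1%, 42.1% to 65.7%), with a median control score of 5.91. The shares for other X peaks and the numbers expected from score are not given here. Whether X deserts differ from the rest of that chromosome can therefore not be read from these shares.

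Peak positions within shared desert peaks were close between lists. Over the 835 control desert peaks found in both clones, the median offset between peak centres was 51 bp for clone 1 and 41.5 bp for clone 2, against 60.5 and 66.5 bp for the 18606 other such peaks. The clone 2 peak was narrower than the control peak in 97.6% of the desert cases, and the clone 1 peak in 63.2%. Among the other such peaks these shares were 99.4% and 64.9%. The share of peaks whose score is a recognisable mean over replicates was 24.1% in desert peaks of clone 1, 33.1% in those of clone 2 and 32.6% in those of control, against 33.0%, 33.2% and 40.9% of the other peaks of these lists.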
